A study of Mus musculus with 4 samples.

Results

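The cytosolic ribosomal protein genes encode the proteins of the large (60S) and small (40S) subunits of the ribosome that translates nuclear-encoded mRNA. They were taken from the deposited count table by symbol, as the protein-coding genes named Rpl or Rps and a number, plus Rplp0, Rplp1, Rplp2 and Rpsa, and without the S6 kinases. The rule found 83 of the 28193 genes in the table. Of these, 48 encode proteins of the large subunit, 32 proteins of the small subunit and 3 the stalk of the large subunit, and they lie on 19 chromosomes. Rpl22 is described apart from the others, because its protein carries the tag by which the ribosomes were isolated.

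fosTRAP-seq sequences RNA bound to ribosomes of neurons in which the c-Fos promoter was active during a tagging window. Male C57BL/6J mice of 3 to 5 months received a Cre recombinase under c-Fos control that needs 4-OHT (AAV8-c-Fos-ERT2-Cre-ERT2-PEST) and a Cre-dependent mouse Rpl22 with an HA tag and eYFP (AAV9-EF1a-DIO-HA-mRpl22) in hippocampal CA1. All mice, controls included, were sleep deprived for 5 h on day 0, when the neurons were tagged. A second sleep deprivation of 5 h followed on day 7 in the SD group, while NSD mice could sleep, and tissue was collected at ZT 5. CA1 from 5 mice was pooled per library, which gave 2 NSD and 2 SD libraries from 10 mice per group. The labels name the dorsal hippocampus of cFos-Cre:Ribotag mice instead, and put replicate 1 of both groups in batch 1 and replicate 2 of both in batch 2. By the study's methods, the tagged HA-Rpl22 comes from a vector, is made only in cells that took up both vectors, and adds to the Rpl22 that every cell makes. Which description holds for these libraries is not known. The libraries held 153511673 to 195910205 estimated counts, and each group has 2 libraries. CA1 pyramidal markers such as Camk2a (4090 to 4380 CPM) were abundant, all 10 astrocyte, 10 microglia and 12 endothelial markers were also detected, and the endothelial markers summed to 68.1 and 91.9 CPM in NSD and 58.2 and 41.4 CPM in SD.

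Ribosomal protein mRNAs are among the most abundant mRNAs of most cells. Nearly all begin with a 5′ terminal oligopyrimidine (5′TOP) tract, a run of C and T (U in the RNA) at the very start of the transcript, through which mTORC1 and LARP1 control their translation together. The vertebrate genome also holds many processed pseudogenes of these genes, intronless copies made by reverse transcription of their mRNAs. Both features can be looked for in sequence. The count below takes a run anywhere near the start, so it is a looser mark than a 5′TOP tract. RefSeq gives a start window (build GRCm38.p6) for 63 of the 83 genes. Of these genes, 49 (77.8%) had an unbroken run of at least 8 letters, each C or T, on the transcribed strand between 20 bases before and 50 bases after the start, against 28.5% of all 27025 genes in that table and 26.1% of 69 mitochondrial ribosomal protein genes. Below are 30 bases around the annotated start of 3 genes whose results are given further on, with both RefSeq starts of Rpl22, located by exact match in GRCm39, with runs of 5 or more C or T in capitals and the annotated first base at position 11.
Rps6, chr4:86775585-86775614, minus strand: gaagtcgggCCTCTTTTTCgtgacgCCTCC
Rps15a, chr7:117715351-117715380, minus strand: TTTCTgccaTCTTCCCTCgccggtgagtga
Rpl22, chr4:152410173-152410202, plus strand: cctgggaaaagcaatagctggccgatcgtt
Rpl22, chr4:152408883-152408912, plus strand: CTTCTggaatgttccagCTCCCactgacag
A run of C and T lies over position 11 in Rps6 and Rps15a and in neither window of Rpl22. The counted row of Rpl22 begins at chr4:152410199, downstream of both annotated starts, so its first bases are shown only in part.

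The copies matter for every count that follows. Among the other rows of the table, 744 had a transcript that aligned to the coding sequence of a ribosomal protein gene with at least 80% identity over 50% or more of both, 735 of them annotated as pseudogenes and 9 as protein-coding. Of these copies, 433 were at least 95% identical and 123 at least 99% identical, and 77 of the 83 genes had one or more. The 60-base stretches below were taken from the coding sequence of 4 genes and from the copy of each with the most counts. They are shown, in GRCm39, because reads from such stretches are the same or nearly the same for gene and copy. Capitals mark the bases at which a gene and its copy differ.
Rps6, chr4:86775037-86775096, minus strand: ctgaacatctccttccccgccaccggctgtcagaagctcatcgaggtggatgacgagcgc
Rps6-ps4, chr2:75022101-75022160, minus strand: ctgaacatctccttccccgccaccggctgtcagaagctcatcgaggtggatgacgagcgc
Rpl10a, chr17:28547785-28547844, plus strand: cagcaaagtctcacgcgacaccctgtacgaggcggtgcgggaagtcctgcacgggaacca
Rpl10a-ps1, chr1:65033699-65033758, minus strand: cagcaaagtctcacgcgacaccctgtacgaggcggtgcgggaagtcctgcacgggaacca
Rps15a, chr7:117714405-117714464, minus strand: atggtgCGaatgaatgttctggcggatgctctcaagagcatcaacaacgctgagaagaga
Rps15a-ps7, chr2:152027543-152027602, minus strand: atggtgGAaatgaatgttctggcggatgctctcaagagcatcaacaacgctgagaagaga
Rpl22, chr4:152414506-152414565, plus strand: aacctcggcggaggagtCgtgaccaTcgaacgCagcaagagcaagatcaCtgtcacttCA
Rpl22-ps1, chrX:7905011-7905070, minus strand: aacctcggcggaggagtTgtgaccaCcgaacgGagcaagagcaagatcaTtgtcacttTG
Over the whole coding sequence, Rps6 and Rps6-ps4 had 0 differences in 747 bases, and Rpl10a and Rpl10a-ps1 had 0 in 651. Rps15a and its copy differed at 4 of 389 aligned bases with 1 base in a gap. Rpl22 and its copy differed at 12 of 373 aligned bases with 13 further bases in gaps, an identity of 93.5%.

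Many counts lay in the copies. The 82 genes without Rpl22 held 1224667 counts over the 4 libraries and the 744 copies, those of Rpl22 included, held 1556021. For 42 of the 83 genes the copies together held more counts than the gene's own row, and for 15 genes more than 90%. Rps6, the ribosomal protein phosphorylated by S6 kinases, was at 9.43 and 7.46 CPM in NSD and 7.72 and 6.78 CPM in SD, while its identical copy Rps6-ps4 was at 107 and 113 CPM in NSD and 120 and 116 CPM in SD. CPM is the count scaled to the library's size, here with TMM factors. Rpl3, which lies near the peptidyl transferase centre, was at 94.7 and 98.9 CPM in NSD and 99.4 and 106 CPM in SD, below its 99.8% identical copy Rpl3-ps1 (170, 183, 193 and 185 CPM in the same order). For Rps6 the gene was lower than its copy by a wide margin in all 4 libraries, and how the counting divided reads between them was not tested.

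Rpl22 stood apart from all the others. It was at 628 and 1040 CPM in NSD (mean 837 ± 294, SD, n = 2) and at 610 and 809 CPM in SD (710 ± 141). Per kilobase of transcript it had 1070 and 1790 CPM in NSD and 1040 and 1380 CPM in SD, against medians of 12.8 to 14.8 CPM per kilobase for the other 82 genes. Rpl22 was therefore 70.5 to 130 times the median gene in the 4 libraries, and 10.6 times the gene with the next highest level per kilobase. These ratios depend on the length used. Rpl22 was 4.31 times the next gene, Rpl41, per coding kilobase, and 2.71 times the next, Rplp1, per kilobase of the union of exons. Over the median of the others it was 49.0 times with the union of exons and 28.7 times with copies added. Both libraries of batch 2 lay above both of batch 1, and the groups overlapped. The log2 fold change in SD against NSD was -0.24 (SE 0.222, 95% interval -0.75 to 0.27, adjusted p = 0.651 in the quasi-likelihood fit of edgeR). It was -0.21 with the batch as a block (adjusted p = 0.143). Without NSD replicate 2 it was 0.18, in the other direction. Rpl22-ps1 was also higher in both libraries of batch 2, at 17.6 and 32.7 CPM in NSD and 17.6 and 30.0 CPM in SD. Counts cannot separate the endogenous Rpl22 from the vector's mouse Rpl22 that the methods describe. In bulk RNA a smaller number of tagged cells and less RNA per cell cannot be told apart.

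Rpl22l1, the paralog that can take the place of Rpl22 in the ribosome, was at 2.09 and 1.90 CPM in NSD and 2.10 and 1.68 CPM in SD. Its groups overlapped, and its log2 fold change was -0.08 (95% interval -0.61 to 0.45, edgeR adjusted p = 0.907).

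**Figure D1:**
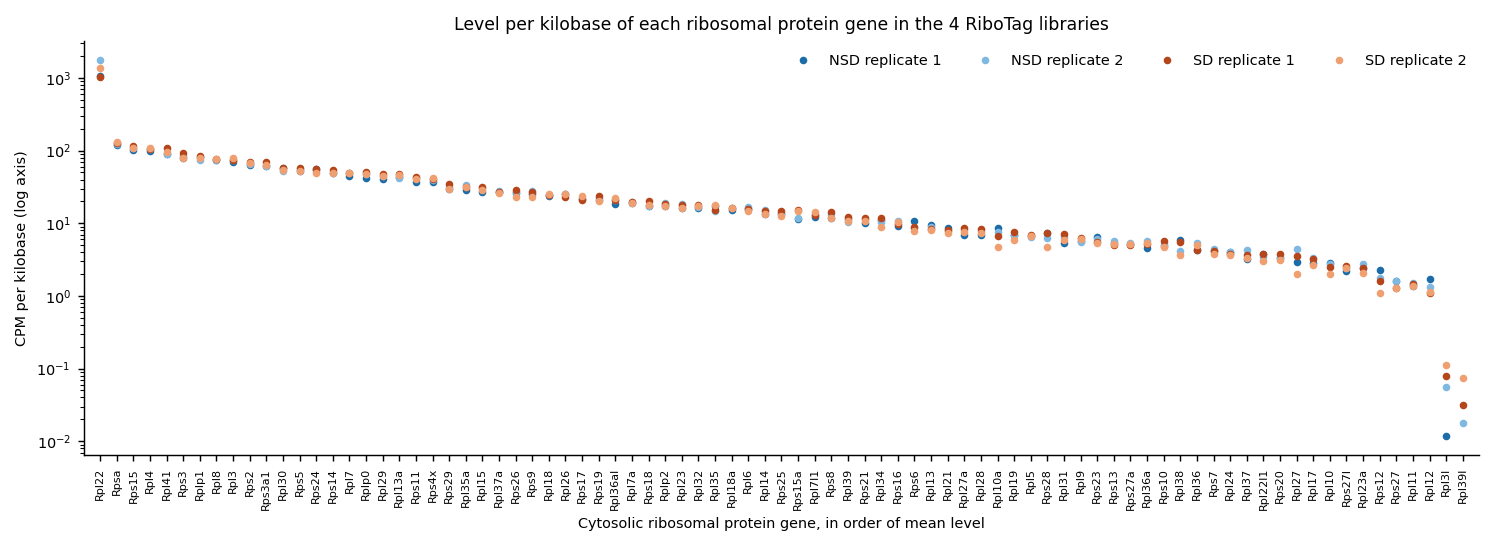
Level of each of the 83 ribosomal protein genes in CPM per kilobase of transcript (log axis), 1 point per library, in order of the mean over the 4 libraries; a value of 0 (Rpl39l in NSD replicate 1) is not drawn. Rpl22 stands 10.6 times above the next gene on this scale (4.31 times per coding kilobase and 2.71 times with the union of exons), and Rpl3l and Rpl39l lie far below the rest.

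Among the other genes the levels per kilobase ranged widely. The quartiles of the mean level were 5.21 and 31.3 CPM per kilobase around a median of 13.4. The 5 highest were Rpsa, Rps15, Rpl4, Rpl41 and Rps3. Rpsa, the small subunit protein also known as the laminin receptor, had 120 and 122 CPM per kilobase in NSD and 126 and 131 in SD. Rps15 had 103 and 109 in NSD and 115 and 110 in SD. Rpl4 had 99.9 and 105 in NSD and 106 and 107 in SD, so that Rps15 and Rpl4 overlapped, while all 4 libraries of Rpsa lay above all of Rps15. Rpl41, which encodes the shortest protein of the ribosome, had 91.0 and 88.4 in NSD and 110 and 95.7 in SD. Rps3, which lines the mRNA entry channel, had 79.4 and 83.0 in NSD and 94.0 and 80.2 in SD, so that Rpl4, Rpl41 and Rps3 each overlapped the next in order. These values depend on the length that is used. Rps3 was at rank 5 here, at rank 7 per coding kilobase and at rank 17 with the union of exons. With its transcript not shortened to the span of the gene in the table it was at rank 26. Rps15a was at rank 42 per kilobase of transcript and rank 2 per kilobase of coding sequence, since its transcript is annotated with 5136 bases of which 390 are coding.

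The 5 lowest were Rpl39l, Rpl3l, Rpl12, Rpl11 and Rps27. Rpl39l, a paralog used in male germ cells, had 0, 2, 4 and 10 counts in NSD 1, NSD 2, SD 1 and SD 2, and Rpl3l, the paralog of Rpl3 in heart and skeletal muscle, had 2, 9, 15 and 22. Each had at least 1 library that did not pass the minimum of over 5 counts, so neither was tested. The other 3 were low in another way. Copies held 97.2% of the combined counts for Rpl12, 94.4% for Rpl11 and 96.5% for Rps27. When the copies were added to their genes, the ratio of the 90th to the 10th percentile of the level per coding kilobase over the 82 genes was 5.90 in place of 19.9, and the median was 83.2 in place of 22.3 CPM per coding kilobase. The order of the genes per coding kilobase without and with the copies was related with a Spearman rho of 0.439 over 82 genes, which share the 4 libraries.

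**Figure D2:**
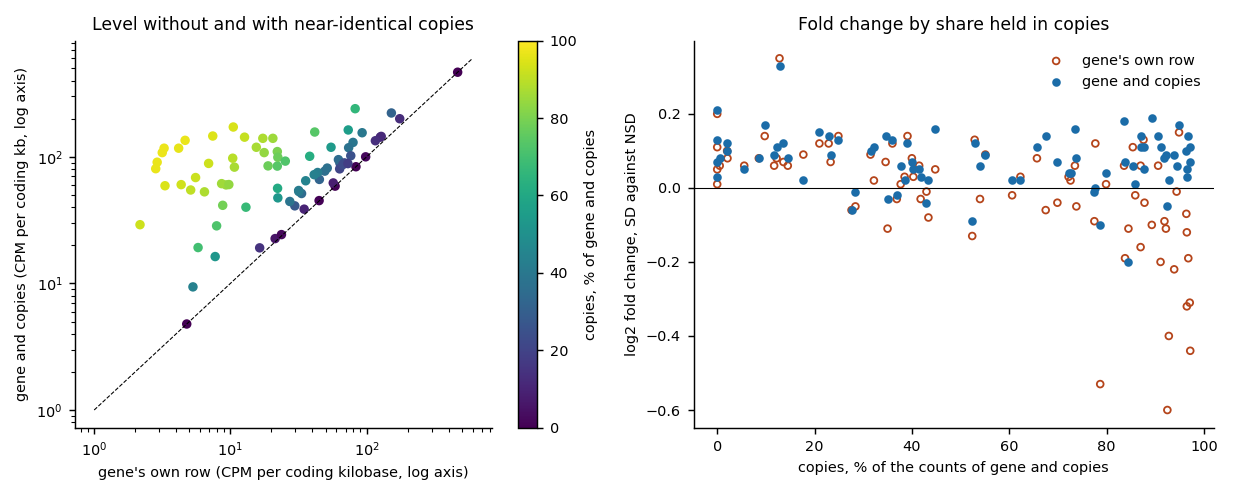
Left, level of each tested gene except Rpl22 in CPM per coding kilobase (mean of 4 libraries, log axes) from its own row and with the rows of its near-identical copies added, coloured by the share of the combined counts held in copies; the dashed line marks equality. Right, log2 fold change in SD against NSD from the own row (open) and with copies (filled) against that share; the lowest open points, down to -0.60, lie at shares near 80% or above, and the filled points lie between -0.20 and 0.33.

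The comparison of SD with NSD asks whether a second sleep deprivation changed the ribosome-bound mRNA of the tagged neurons. For the ribosomal protein genes as a group the difference was smaller than the spread between libraries. The 82 genes without Rpl22 held 0.172% and 0.180% of all counts in NSD (0.176% ± 0.00536, SD, n = 2) and 0.184% and 0.171% in SD (0.177% ± 0.00909), so that the groups overlapped. With the copies the shares were 0.386% and 0.405% in NSD and 0.409% and 0.389% in SD. Over the 80 tested genes without Rpl22 the median log2 fold change was 0.032, against -0.016 over all 22338 genes tested, 0.018 over the 15551 protein-coding genes and 0.049 over the 8635 protein-coding genes at 10 CPM or more. The median was 0.108 in batch 1 and -0.087 in batch 2. The large subunit (0.014 over 45 genes), the small subunit (0.053 over 32) and the stalk (0.071 over 3) were each within 0.1 of 0.

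One of these 80 genes, Rps15a, was called higher in SD, a call being an adjusted p below 0.05 with a change of more than 1.2-fold, where 0.77% of all genes were called higher, and 0 were called lower, where 2.33% of all genes were. Of the 80, 3 (3.75%) had an unadjusted p under 0.05, beside 19.1% of all genes tested and 14.6% of protein-coding genes. With the batch block 1 was called higher and 1, Rpl10a, lower, against 2.99% and 8.47% of all genes, and with DESeq2 1 was called higher and 0 lower, against 3.0% and 5.8%. Among the 15551 protein-coding genes of the same fits, the kind to which all 80 belong, the shares called higher and lower were 0.952% and 0.540%, with the block 3.77% and 3.29%, and with DESeq2 3.92% and 1.79%. For 19 of the 80 genes (23.8%) the lower SD library exceeded the higher NSD library, and for 12 (15.0%) the reverse held, beside 22.0% and 27.5% of all genes tested and 26.5% and 20% of protein-coding genes. The 95% interval of the fold change lay within 1.2-fold in both directions for 20 of the 80 genes, so for the others a change of that size was not excluded by these 4 libraries.

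**Figure D3:**
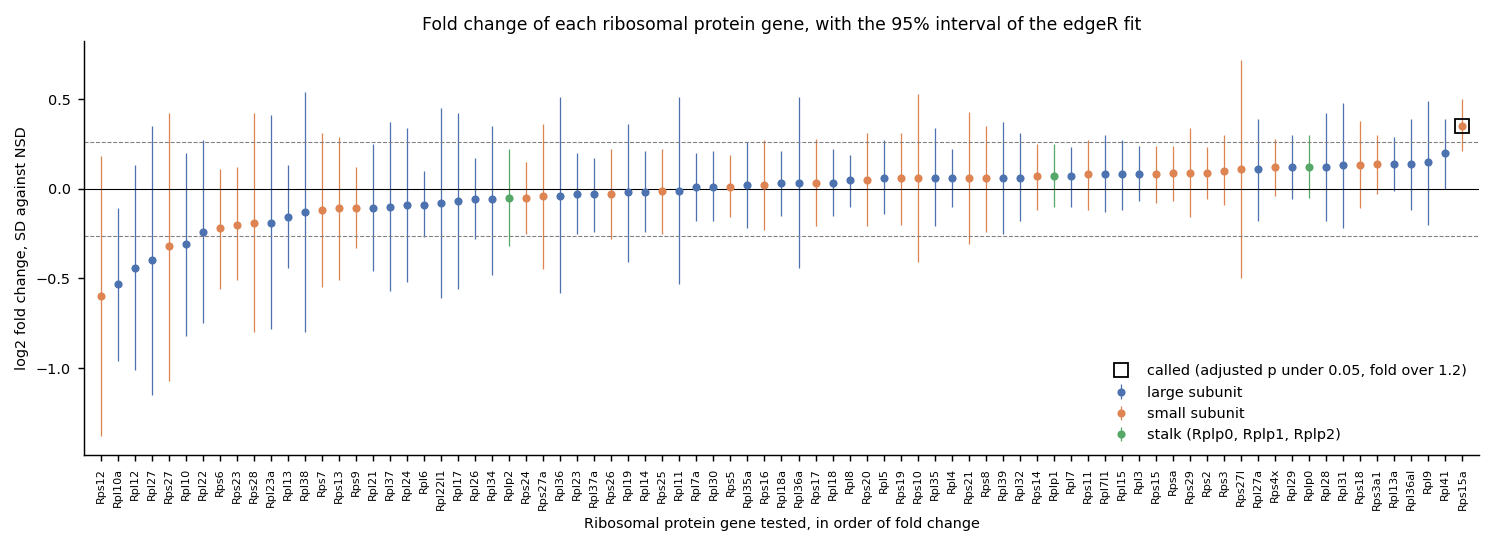
Log2 fold change of the 81 tested ribosomal protein genes in SD against NSD with the 95% interval of the edgeR fit, in order of size and coloured by subunit; dashed lines mark a 1.2-fold change. Rps15a (0.35) is the 1 gene called, and intervals are widest at the lower end, as for Rps12 (-1.38 to 0.18).

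Rps15a, a protein of the small subunit, rose in SD. It was at 59.0 and 60.7 CPM in NSD (59.9 ± 1.18, SD, n = 2) and at 77.1 and 75.7 CPM in SD (76.4 ± 0.965). The groups were far apart relative to the spread within them, and the rise was seen in batch 1 (0.39) and in batch 2 (0.32). Its log2 fold change was 0.35 (SE 0.0637, 95% interval 0.21 to 0.50, edgeR adjusted p = 0.0385), with adjusted p = 0.00118 with the block and 5.32e-05 with DESeq2. With its 8 copies added it was 0.33 (adjusted p = 0.0376), and copies held 12.8% of the combined counts. The adjusted p was 0.0544 with protein-coding genes only, 0.0507 without the count filter, 0.0628 with filterByExpr and 0.0578 without NSD replicate 1, at log2 fold changes of 0.33 to 0.38. The row spans chr7:117703595-117715411 in the table, on the minus strand, and its exons have 0 bases in common with those of another annotated gene. Most of the 5136 annotated bases lie outside the 390 coding bases, and the table does not show where in the gene the counts fell.

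Rpl10a, a large subunit protein, was lower in SD in its own row. It was at 7.21 and 6.31 CPM in NSD and at 5.48 and 3.87 CPM in SD, and the groups did not overlap. Its log2 fold change was -0.53 (SE 0.186, edgeR adjusted p = 0.160), which passed with the block (adjusted p = 0.0128). It moved with single libraries, from -0.80 without SD replicate 1 (adjusted p = 0.00487) to -0.40 without NSD replicate 1 (adjusted p = 0.432) and -0.29 without SD replicate 2 (adjusted p = 0.642). In each such edgeR fit 1 group is a lone library, which is assumed to vary like those of the other group. Its identical copy Rpl10a-ps1 was at 22.2 and 20.2 CPM in NSD and at 22.3 and 20 CPM in SD (-0.01, adjusted p = 0.983). With the copies, which held 78.7% of the combined counts, Rpl10a was at 29.6 and 26.2 CPM in NSD and 27.9 and 24.2 CPM in SD (-0.10, adjusted p = 0.646, and 0.367 with the block).

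**Figure D4:**
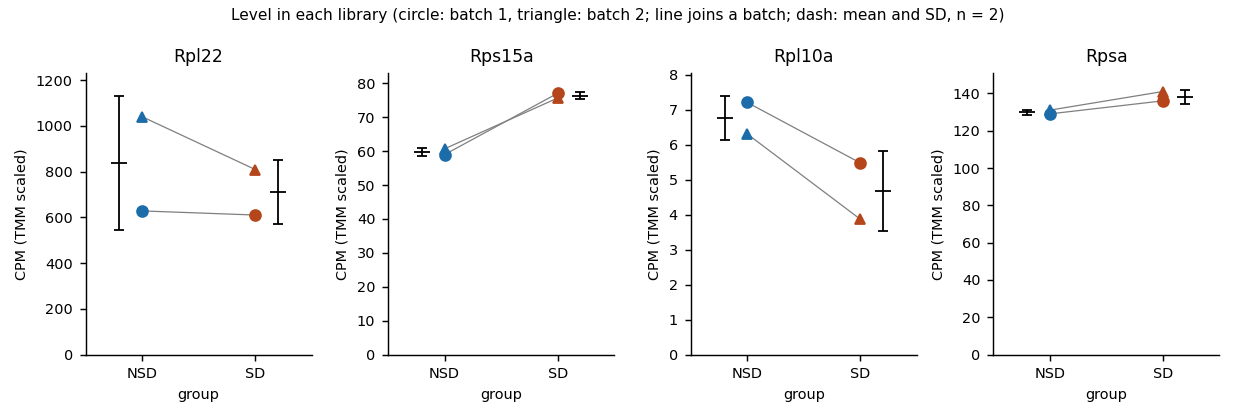
CPM of Rpl22, Rps15a, Rpl10a and Rpsa in each library, with batch 1 as circles, batch 2 as triangles, a line joining the NSD and SD library of a batch, and the group mean ± SD (n = 2) beside the points; axes start at 0. Rps15a rises in both batches (59.0 and 60.7 to 77.1 and 75.7 CPM), and Rpl22 is high in both libraries of batch 2.

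After Rps15a, the largest positive fold changes belonged to Rpl41, Rpl9, Rpl13a and Rps3a1, none of them called. Rpl41 was at 33.0 and 32.1 CPM in NSD and 39.9 and 34.7 CPM in SD (0.20, edgeR adjusted p = 0.253). Rpl9, a protein of the large subunit, was at 4.08 and 4.04 CPM in NSD and 4.51 and 4.46 CPM in SD (0.15, adjusted p = 0.687). In both genes the SD libraries lay above the NSD libraries. Rpl13a, known as part of the complex that silences inflammatory mRNAs, was at 44.7 and 44.0 CPM in NSD and 49.7 and 47.9 CPM in SD (0.14, adjusted p = 0.307). Rps3a1, a small subunit protein, was at 59.4 and 60.6 CPM in NSD and 69.1 and 62.7 CPM in SD (0.14, adjusted p = 0.358). Leaving out 1 library gave 0.09 (without SD replicate 1) to 0.31 (without SD replicate 2) for Rpl41 and 0.07 to 0.22 for Rps3a1, with the same libraries at the ends.

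The 5 largest negative fold changes belonged to Rps12, Rpl10a, Rpl12, Rpl27 and Rps27, of which all but Rpl10a were under 3 CPM and none was called in the edgeR fit of all 4 libraries without the block. Rps12 was at 1.17 and 0.904 CPM in NSD and 0.802 and 0.566 CPM in SD (-0.60, SE 0.339, edgeR adjusted p = 0.400). Rpl12, part of the stalk base, was at 2.09 and 1.63 CPM in NSD and 1.34 and 1.40 CPM in SD (-0.44, adjusted p = 0.398). For both, the groups did not overlap. Rpl27 was at 1.62 and 2.41 CPM in NSD and 1.95 and 1.12 CPM in SD (-0.40, adjusted p = 0.595), and its groups overlapped. Leaving out 1 library gave -0.87 to -0.36 for Rps12, -0.61 to -0.22 for Rpl12 and -0.85 to -0.03 for Rpl27, the last without SD replicate 2. Rps27 was at 0.802 and 0.783 CPM in NSD and 0.631 and 0.635 CPM in SD (-0.32, adjusted p = 0.678). Copies held 92.5% to 97.2% of the combined counts of Rps12, Rpl12, Rpl27 and Rps27. With the copies added their log2 fold changes were, in that order, -0.05, 0.07, 0.02 and 0.05, so that Rpl12, Rpl27 and Rps27 turned from below to above 0.

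Level and share in copies moved with the fold change over the genes. The 45 genes at 10 CPM or more had a median of 0.062, with 36 above 0. The 35 tested genes under 10 CPM had a median of -0.079, with 10 above 0. Over the 8635 protein-coding genes at 10 CPM or more the median was 0.049, with 65.5% above 0. Over all 15551 protein-coding genes these were 0.018 and 54.2%, and those under 10 CPM were not counted apart. SD replicate 2 was the lowest library for 19 of the 35 ribosomal protein genes under 10 CPM and the highest for 0. How often it was lowest over all genes was not counted. It had the most counts but the fewest genes with a count (26049). The endothelial markers, 12 of 12 with a fold change below 0 (median -0.757), were also lowest there, at 41.4 CPM in sum. So were the sums of the microglia (90.5 CPM), interneuron (1100 CPM) and choroid plexus or ependyma markers (44.8 CPM). Those of astrocytes, oligodendrocytes, dentate or CA3 and CA1 pyramidal cells were lowest in other libraries. The part of any of these in the low genes was not tested. Of the 25 genes with over 80% of the combined counts in copies, the median was -0.11 in their own rows and 0.09 with the copies. With the copies added, the median over all 80 genes was 0.079, with 70 above 0 (87.5%) and a range from -0.20 to 0.33, beside a median of 0.067 and 70.6% above 0 over the 8657 protein-coding genes at 10 CPM or more in that fit. In that fit 1 gene, again Rps15a, was called higher and 0 lower, where 1.1% and 2.34% of all genes were. The 95% interval then lay within 1.2-fold for 42 of the 80 genes.

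Rps6 and the stalk genes were not called. Rps6 had a log2 fold change of -0.22 (95% interval -0.56 to 0.11, edgeR adjusted p = 0.487) in its own row, and with its copies it was at 123 and 125 CPM in NSD and 134 and 131 CPM in SD (0.09, adjusted p = 0.496). Rplp0, the base of the stalk that recruits elongation factors, was at 54.8 and 60.6 CPM in NSD and 64.9 and 60.9 CPM in SD (0.12, adjusted p = 0.438). Rplp1 and Rplp2 bind to it as dimers. Rplp1 was at 40.4 and 36.8 CPM in NSD and 41.9 and 39.3 CPM in SD (0.07), and Rplp2 at 7.42 and 8.12 CPM in NSD and 7.73 and 7.28 CPM in SD (-0.05), with overlapping groups in both. Rpsa, at 129 and 131 CPM in NSD and 136 and 141 CPM in SD, had a log2 fold change of 0.09 (95% interval -0.07 to 0.24, adjusted p = 0.563).

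The remaining paralogs were not called either. Rpl7l1, a factor related to Rpl7 that acts in ribosome assembly, was at 16.0 and 18 CPM in NSD and 17.4 and 18.6 CPM in SD (0.08). Rpl36al was at 9.84 and 11.3 CPM in NSD and 11.1 and 12.1 CPM in SD (0.14). Rps27l, the p53-responsive paralog of Rps27, was at 1.11 and 1.21 CPM in NSD and 1.29 and 1.21 CPM in SD (0.11). Rps4l is annotated as a transcribed pseudogene and so is no member, and was at 12.3 and 15.4 CPM in NSD and 11.3 and 13.6 CPM in SD (-0.16, edgeR adjusted p = 0.618). Rpl10l was not analysed here.

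Rps27a, Fau and Rack1 were not called either. Rps27a, made as a fusion with ubiquitin, was at 3.03 and 3.09 CPM in NSD and 2.97 and 2.98 CPM in SD (-0.04, edgeR adjusted p = 0.940). Fau, which carries a small subunit protein behind a ubiquitin-like domain, was at 16.2 and 14 CPM in NSD and 13.8 and 15.2 CPM in SD (-0.06, adjusted p = 0.833). Rack1, the scaffold protein on the head of the small subunit, was at 55.8 and 62.4 CPM in NSD and 61.9 and 64.9 CPM in SD (0.10, adjusted p = 0.548).

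Genes related to the ribosomal proteins by function were compared in the same fit. Of 78 mitochondrial ribosomal protein genes, 0 were called by edgeR, with a median of 0.038, and 4 (5.13%) had an unadjusted p under 0.05, beside 14.6% of protein-coding genes. With the block 1 (1.28%) was called higher, beside 3.77% of protein-coding genes, and with DESeq2 2 (2.56%), beside 3.92%. Of 20 other 5′TOP mRNAs, 0 were called by edgeR, with a median of 0.072, and 2 (10%) had an unadjusted p under 0.05, beside 19.1% of all genes, since the list holds non-coding genes too. Gas5, a non-coding 5′TOP host gene of snoRNAs, was at 6.67 and 4.75 CPM in NSD and 3.60 and 1.87 CPM in SD (-1.06, adjusted p = 0.0946). It was the 1 gene of the 20 (5%) called lower with the block (adjusted p = 0.000488) and with DESeq2. Beside it, 8.47% of all genes were called lower with the block and 5.8% with DESeq2. Among protein-coding genes alone these shares were smaller, at 3.29% and 1.79%. Snhg1, another such host gene, had a log2 fold change of -0.77 (adjusted p = 0.262), and at the other end Eef1g had 0.19 and Eef2 0.15.

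Of 50 translation factors, 2 were called higher and 0 lower, beside 0.952% and 0.540% of protein-coding genes, with a median of 0.062. An unadjusted p under 0.05 was found for 7 (14%), beside 14.6% of protein-coding genes. Eif5b, which joins the subunits, rose from 60.8 and 61.8 CPM in NSD to 85.4 and 82.7 CPM in SD (0.46, edgeR adjusted p = 0.0328), and Eif3a, the largest subunit of eIF3, from 78.2 and 84.9 CPM to 118 and 105 CPM (0.45, adjusted p = 0.0384). The lowest were Eif2b3 (-0.23, adjusted p = 0.433) and Eif3l (-0.16, adjusted p = 0.322). Eif5b and Eif3a were also called with the block and with DESeq2, while the number of genes of this list called higher was 1 without the count filter or without NSD replicate 1, and 0 with filterByExpr.

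Of 58 ribosome biogenesis factors, 0 were called by edgeR, with a median of 0.040, and 7 (12.1%) had an unadjusted p under 0.05, beside 14.6% of protein-coding genes. With the block Ncl (nucleolin) and Imp4 were called higher and Riok1, a kinase of late 40S maturation, lower, beside 3.77% and 3.29% of protein-coding genes. Ncl was at 127 and 138 CPM in NSD and 163 and 169 CPM in SD (0.33, adjusted p = 0.0554, and 0.00277 with the block), and DESeq2 called it too (adjusted p = 0.000298). Imp4 was at 18.2 and 18.7 CPM in NSD and 24.0 and 20.9 CPM in SD (0.28, adjusted p = 0.0328 with the block). Riok1 was at 6.77 and 6.40 CPM in NSD and 5.23 and 4.19 CPM in SD (-0.48, adjusted p = 0.0207 with the block), and Taf1b had a log2 fold change of -0.36 (adjusted p = 0.263).

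Of 32 genes of mTORC1, the S6 kinases and the control of 5′TOP translation, 2 were called higher and 0 lower, beside the same 0.952% and 0.540%, with a median of 0.065. An unadjusted p under 0.05 was found for 7 (21.9%), beside 14.6% of protein-coding genes. DESeq2 called 4 higher, Tsc1 (adjusted p = 0.00335) among them, and 1 lower, beside 3.92% and 1.79%. Eif4ebp2, the main 4E-BP of neurons and a brake on cap-dependent initiation, rose from 82.5 and 75.4 CPM in NSD to 101 and 99.8 CPM in SD (0.35, edgeR adjusted p = 0.0424). Deptor, an inhibitor of mTOR, rose from 37.8 and 34.6 CPM to 45.6 and 45.9 CPM (0.34, adjusted p = 0.0482). With the block Rps6ka2 was also called higher (0.31 without it, adjusted p = 0.00538 with it) and Rps6kb2, the gene of S6 kinase 2, lower, beside 3.77% and 3.29% of protein-coding genes. Rps6kb2 was at 8.99 and 6.17 CPM in NSD and 5.20 and 3.82 CPM in SD (-0.75, adjusted p = 0.0982, and 0.00135 with the block). Eif4ebp1 had a log2 fold change of -0.16 (adjusted p = 0.810). The number of genes of this list called higher was 0 without the count filter, with filterByExpr, with protein-coding genes only or without NSD replicate 2, and 1 without SD replicate 2.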

How the data were processed

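The labels describe an Illumina Stranded Total RNA library with Ribo-Zero Plus depletion made from RNA bound to tagged ribosomes. Per the study's methods, reads were trimmed and mapped to mm39 (GRCm39) by STAR 2.7.8a, and Partek's E/M model assigned them to genes of Ensembl release 110. The authors deposited estimated counts per gene without normalization. Of the rows, 55.6% hold a value that is not whole. Such a model divides reads that match several places among genes, so a gene and its near-identical copy can trade counts. Whether the counting used the strand is not given in the sources used here. Of the 83 genes, 17 have exon bases in common with a gene on the other strand that has at least 10% of their count, Rpl12, Rpl18, Rpl5 and Rps18 among them.

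Counts were rounded, 22338 of 28193 genes passed a minimum of over 5 counts in each of the 4 libraries, and SD was compared with NSD by edgeR 4.0.16 (TMM, quasi-likelihood, R 4.3.3, Benjamini-Hochberg over all genes). Calls required adjusted p below 0.05 together with a change above 1.2-fold. The design held condition alone. DESeq2 1.42.0, other scalings and filters, protein-coding genes only, the batch as a block and each library left out were alternatives. The fits were also run on simulated counts with planted changes, larger than that of Rps15a and without a batch effect. That run cannot show how well a change of the size of Rps15a is called. The labels' batch number equals the replicate number and pairs the NSD and SD libraries, and the correlation of their deviations from the means of the groups was 0.178 over all genes and 0.239 over the ribosomal protein genes.

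Levels per kilobase divide CPM by the exonic bases of the shortest CCDS transcript (GENCODE M39) inside the gene's span in the table, which shortened 59 transcripts. Copies were found with BLAST+ 2.17.0+. Adding these copies, and the coding and unshortened lengths, were chosen after the data had been seen. The genes and lists were chosen with earlier results of these data known. The genes named are Rpl22 and its paralog, the stalk genes, Rpsa, those called, the 5 at each end of level and of fold change, the paralogs, Rps6, Rps27a, 2 related genes (another is not reported here), and in each list those called and the 2 at each end. Rpl3, Camk2a and the copies were named after their values were seen. The table has 0 sample columns without a sample. Nothing says that the libraries of a group came from separate experiments beyond their batch and pool of mice, so p-values measure the spread between pools. The table's other columns are annotation.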

Additional observations from a re-analysis of the deposited data

How the results depend on the processing

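Of the counts over all genes (172 higher, 520 lower), DESeq2 gave 671 and 1296, no count filter 50 and 80, filterByExpr 1 and 0, protein-coding genes only 51 and 39, the replicate block 668 and 1891, and the block with copies added 813 and 1875, while leaving out 1 library gave 124 to 308 and 78 to 1955. Of the 80 ribosomal protein genes without Rpl22, the 1 called higher became 0 with no count filter, with filterByExpr and with protein-coding genes only, and the 0 called lower became 1 with the replicate block. Leaving out 1 library gave 0 to 1 in each direction, with 0 higher without NSD replicate 1 and 1 lower without SD replicate 1. The median log2 fold change of these genes was -0.018 to 0.071 when a library was left out, with the value below 0 without SD replicate 1. For Rpl22 these values ran from -0.53 to 0.18. With copies added, the fold changes of Rpl12 (0.07), Rpl27 (0.02) and Rps27 (0.05) reversed, also with the block. Rpl22 over the median level of the others was 98.3, and became 49.0 with the union of exons, 39.1 with named pseudogenes added and 28.7 with all copies added. The summed share in SD over NSD, 1.01, was 0.944 with Rpl22 kept in. The cause of these shifts was not tested. Few counts go with wide errors: the standard error was 0.325 for Rps27 and 0.0682 for Rpl3.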

Other observations

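Of the 83 ribosomal protein genes, 30 hold 59 annotated snoRNA genes within their span and on their strand. The 30 had a median log2 fold change of 0.027 and the 50 tested genes without one, Rpl22 left out, a median of 0.033.

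Among the 368 tested copies, 1 was called higher and 0 lower by edgeR, beside 0.77% and 2.33% of all genes, and 3 and 4 with the batch block, beside 2.99% and 8.47%. The 1 called was Gm31166, an 84.2% identical copy of Rpl37 annotated as a transcribed processed pseudogene, at 0.489 and 0.732 CPM in NSD and 1.88 and 1.97 CPM in SD (log2 fold change 1.66, edgeR adjusted p = 0.0385). Its annotated span, chr19:5562556-5600396, is far longer than the coding sequence it matches, and the table does not show where in it the counts fell.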
